A study of Mus musculus with 6 samples.

Results

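Genes of myelin and of the cells that make it, 9 in all, are described here in RNA bound to tagged ribosomes of mouse cortex: Mbp, Mobp, Cnp, Ermn, Mog, Mag, Ugt8a, Cldn11 and Olig2. They were taken as the probe sets that name exactly 1 gene in the platform's probe-to-gene table with 1 of these 9 symbols, which gave 24 of 45037 probe sets and 9 of 18193 named genes. A probe set is a group of short probes on the array that together measure 1 transcript, and 20 of the 24 passed a limit of a mean intensity of at least 50 in at least 1 group. The 4 that did not were 1 of 8 for Mbp, 2 of 5 for Mobp and 1 of 2 for Ugt8a.

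The arrays measured messenger RNA pulled down with ribosomes by TRAP (translating ribosome affinity purification), in which a transgene on a bacterial artificial chromosome (BAC) tags the ribosomes of cells where its driver gene is active. There were 3 replicates of line ES691, driven by S100a10, and 3 of line DU9, driven by Glt25d2 (now Colgalt2), all from cortex of untreated mice that had been crossed for 3 to 5 generations from FVB onto C57BL/6. Each array started from 15 ng of RNA with 2 rounds of amplification and a biotin label, and the labels give no age. The lines were set against each other as sources of pyramidal cell RNA. The series text adds that the S100a10 BAC also marks cells that are not neurons, and neither line was made as a model of oligodendrocytes. The titles call the replicates biological and say no more about them, so p-values measure the spread between these samples. Oligodendrocyte messengers in such RNA can come from tagged oligodendrocytes or from the rest of the lysate, and fewer cells of a type cannot be told apart from less RNA per cell.

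Oligodendrocytes wrap axons of the central nervous system in myelin, a stack of membrane layers that are pressed together on both faces. Mbp and Mobp are small basic proteins that hold the cytoplasmic faces together, and their messengers are carried out into the cell's processes and translated there on free ribosomes. Cnp keeps channels of cytoplasm open within the sheath, and Ermn (ermin) binds actin in the cell's processes. Mog, Mag and Cldn11 are membrane proteins made at the endoplasmic reticulum: Mog lies on the outer surface of the sheath, Mag faces the axon, and Cldn11 forms the tight junctions between its layers. Ugt8a is the enzyme of the endoplasmic reticulum that makes galactosylceramide, the main glycolipid of myelin. Olig2 is a transcription factor that specifies the lineage and is present in precursors as well as in mature cells.

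The 250 bases upstream of the start are shown for Ermn and Mog, with lower means in S100a10 arrays, and for Cldn11 and Olig2, with higher means. Mog was uneven in Glt25d2 arrays. Other members with lower means, Mbp and Ugt8a among them, are not shown. The bases are printed with CG dinucleotides in capitals. They are the RefSeq sequences of build GRCm38.p6, 5′ to 3′ on the gene's strand: Ermn at chr2:58052865-58053114 (minus strand), Mog at chr17:37023399-37023648 (minus), Cldn11 at chr3:31149670-31149919 (plus) and Olig2 at chr16:91225300-91225549 (plus).
Ermn: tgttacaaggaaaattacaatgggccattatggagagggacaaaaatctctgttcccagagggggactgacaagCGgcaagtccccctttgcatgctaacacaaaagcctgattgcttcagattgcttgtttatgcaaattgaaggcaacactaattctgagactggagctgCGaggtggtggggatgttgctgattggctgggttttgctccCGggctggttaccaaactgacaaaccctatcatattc
Mog: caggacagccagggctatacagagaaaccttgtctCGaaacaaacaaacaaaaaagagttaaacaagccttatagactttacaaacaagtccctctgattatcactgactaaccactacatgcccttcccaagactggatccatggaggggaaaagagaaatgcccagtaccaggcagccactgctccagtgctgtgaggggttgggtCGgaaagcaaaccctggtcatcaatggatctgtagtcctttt
Cldn11: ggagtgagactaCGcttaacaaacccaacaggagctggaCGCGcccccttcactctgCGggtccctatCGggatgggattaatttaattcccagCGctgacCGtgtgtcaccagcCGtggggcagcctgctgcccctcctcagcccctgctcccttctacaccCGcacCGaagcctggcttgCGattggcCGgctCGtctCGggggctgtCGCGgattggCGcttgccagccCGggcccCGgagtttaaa
Olig2: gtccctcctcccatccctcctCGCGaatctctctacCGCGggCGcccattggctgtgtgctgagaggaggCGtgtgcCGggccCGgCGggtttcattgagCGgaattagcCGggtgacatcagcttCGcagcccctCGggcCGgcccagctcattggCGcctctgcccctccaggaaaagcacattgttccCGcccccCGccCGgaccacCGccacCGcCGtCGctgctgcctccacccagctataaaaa

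The Ermn and Mog windows held 3 and 2 CG dinucleotides, and 37.8% and 29.0% of 32851 mouse promoter windows of this length held as few or fewer. Cldn11 and Olig2 held 19 and 22, with 82.1% and 86.7% of windows at or below them, against a median of 6. The contrast did not run through all members: Ugt8a held 32, Cnp 13, Mobp 4 and the 3 listed starts of Mag 2, 3 and 3. Windows were counted for 8 of the 9 members, and Mbp was left out. ACAATG, a core sequence bound by SOX factors, was searched on both strands and stood in the Ermn and Olig2 windows and in 10.7% of all windows. TATAAA, on both strands, stood in the Olig2 window and in 12.4% of all windows. These are matches of letters and not measured sites.

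The deposited intensities were not on 1 scale across the groups. Array medians were 20.4 to 21.3 in Glt25d2 and 35.5 to 35.8 in S100a10 arrays, and the median gene differed by 0.56 on the log2 scale, S100a10 minus Glt25d2. It differed by -0.02 after quantile normalization of the arrays and by -0.14 after median centring, so the members lower in S100a10 arrays ran against the shift of the deposited scale, and those higher ran with it. At least 2 Glt25d2 arrays held the same value in 2 of the 20 probe sets, Mbp 1425263_a_at and Mobp 1436263_at, which understates their spread. As a check of the labels, the driver S100a10 stood at 15486 ± 2417 in its own arrays against 3237 ± 179 (SD, n = 3 each), and Colgalt2 was at least 21.1-fold higher in Glt25d2 arrays.

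Mbp and Ermn, which make proteins of the cytoplasmic side of myelin and of the cell's processes, were lower in S100a10 arrays, and Olig2 was higher on the deposited scale. At a limma adjusted p under 0.05 (Benjamini-Hochberg, over all probe sets past the limit), 8 of the 20 probe sets were lower in S100a10 arrays, against 4.39% of all probe sets tested, and 1 was higher, against 44.2%. That 1 is Olig2, which passed the limit in S100a10 arrays alone. With 1 probe set for each gene, the one with the highest mean, 2 of 9 genes were lower, against 4.5% of all genes, and 1 was higher, against 44.4%. In the same 2 genes every S100a10 array lay below every Glt25d2 array, as in 7.9% of all genes. The median of the 9 differences was -0.57, against 0.56 for all genes. After quantile normalization 3 genes were lower, Mbp, Ermn and Mobp, and 0 higher by limma (also 0 at an unadjusted p under 0.05), against 18.4% of all genes in each direction.

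**Figure D1:**
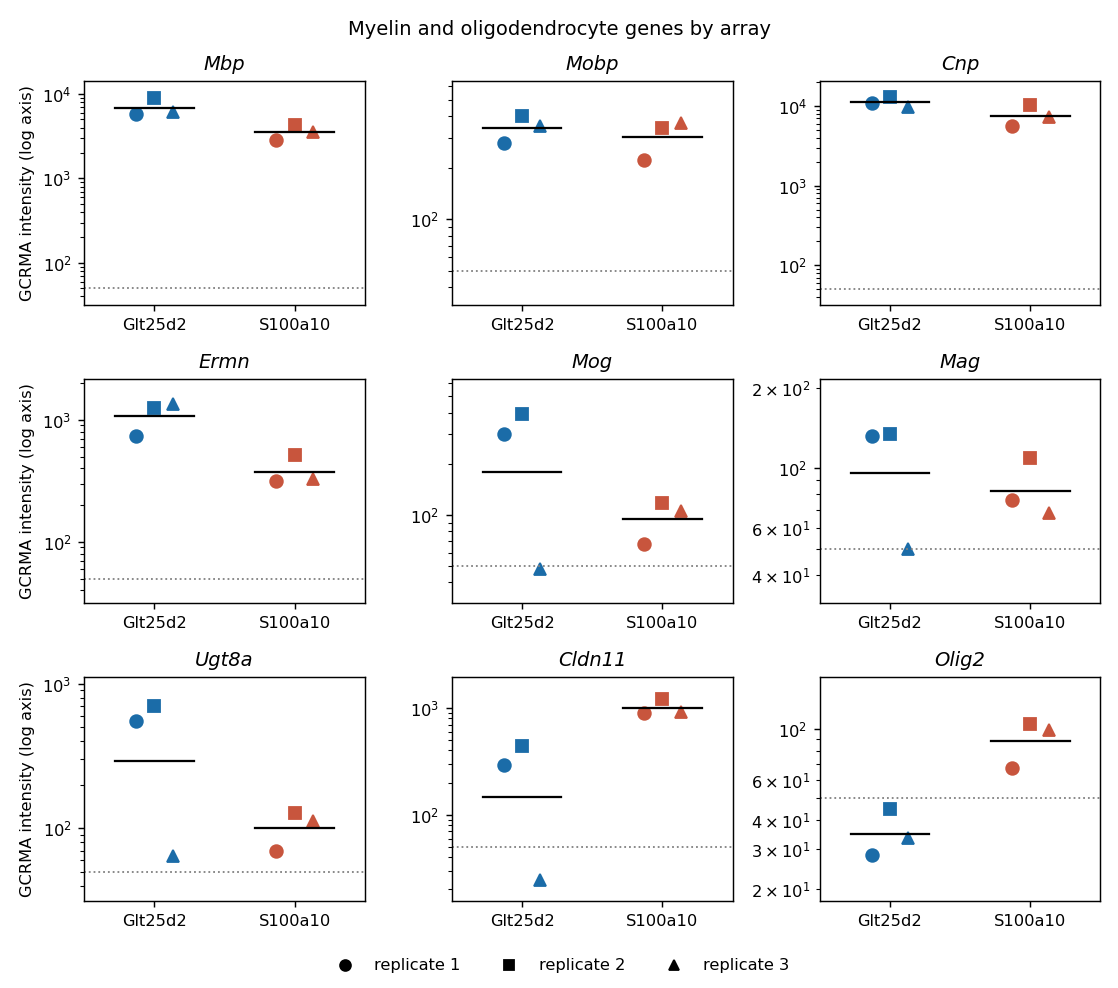
GCRMA intensity of the probe set used for each of the 9 genes (log axis) in the 3 Glt25d2 and 3 S100a10 arrays. Symbols give the replicate, horizontal bars the mean of log2 values and dotted lines the limit of 50. Mbp and Ermn lie lower in every S100a10 array, Cldn11 and Olig2 higher, and Mog, Mag, Ugt8a and Cldn11 are low in Glt25d2 replicate 3.

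Mbp, the myelin basic protein gene, had intensities of 5840, 8907 and 6146 in Glt25d2 replicates 1 to 3 and of 2880, 4330 and 3589 in S100a10 replicates 1 to 3 (probe set 1433532_a_at). Every S100a10 array lay below every Glt25d2 array. The means were 6964 ± 1689 and 3600 ± 725 (SD, n = 3 each), and limma gave a difference of -0.95 on the log2 scale (SE 0.23, adjusted p = 0.0182). The call held in 4 of the 6 fits that left out 1 array, from -1.09 to -0.75, and was lost at -0.79 without S100a10 replicate 1 and at -0.95 without S100a10 replicate 3. It held after quantile normalization, at -1.22, and after centring, at -1.65.

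The 8 Mbp probe sets read the same gene and are not independent, and in all 8 every S100a10 array lay below every Glt25d2 array, an order found in 7.63% of all probe sets past the limit. The 7 past the limit differed by -1.23 to -0.53, with a median of -0.83, and 6 of them passed. Probe set 1436201_x_at differed by -1.23 (SE 0.27, limma adjusted p = 0.0130) and 1456228_x_at by -1.11 (SE 0.27, limma adjusted p = 0.0191); the ending x marks sets whose probes may also match other transcripts. The smallest differences were at 1425264_s_at, with means of 1388 ± 114 and 961 ± 56.3, and at 1425263_a_at, with 149 ± 1.5 and 104 ± 15.3 (SD, n = 3 each), both at -0.53. Probe set 1454651_x_at differed by -0.68 and did not pass (limma adjusted p = 0.0824). The dim set 1451961_a_at had means of 45.0 and 31.6. All 7 passed after quantile normalization, at -1.67 to -1.02.

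Ermn had intensities of 742, 1247 and 1349 in Glt25d2 replicates 1 to 3 and of 312, 513 and 328 in S100a10 replicates 1 to 3 (probe set 1440902_at). The lowest Glt25d2 array, replicate 1, was above the highest S100a10 array, replicate 2. The means of 1113 ± 325 and 384 ± 111 (SD, n = 3 each) differed by -1.52 on the log2 scale (limma adjusted p = 0.00921, SE 0.31), a 2.87-fold lower level. It passed with any 1 array left out, at -1.79 to -1.36, and after quantile normalization, at -2.12. The second Ermn probe set, 1436578_at, had 126, 179 and 200 against 97.7, 116 and 103, again with no overlap, and differed by -0.65 (SE 0.20, limma adjusted p = 0.0374). That call held in 2 of the 6 fits with 1 array left out, from -0.84 to -0.51, and was lost without Glt25d2 replicate 2 or any single S100a10 array.

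Cnp and Mobp did not pass. Cnp had 10798, 12892 and 9800 in Glt25d2 and 5645, 10258 and 7208 in S100a10 replicates 1 to 3 (probe set 1437341_x_at). S100a10 replicate 2 lay above Glt25d2 replicate 3, so the groups overlapped. The log2 difference was -0.57 (95% interval -1.18 to 0.036, limma adjusted p = 0.105), and it passed at -0.80 without S100a10 replicate 2. The other Cnp probe sets differed by -0.28 and -0.18.

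Mobp had 280, 401 and 352 in Glt25d2 and 221, 341 and 365 in S100a10 replicates 1 to 3 (probe set 1421010_at), with the groups interleaved. It differed by -0.17 (95% interval -0.78 to 0.43, limma adjusted p = 0.575), and its other probe sets past the limit, 1433785_at and 1436263_at, by -0.0097 and -0.00017. The signs of all 3 turned when single arrays were left out, 1421010_at for instance to 0.051 without S100a10 replicate 1. After quantile normalization 1421010_at was -0.90 and passed. Mobp 1450088_a_at was dim, at 20.1 and 29.1, and 1441308_at had means of 4.75 in both groups.

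Mog, Mag and Ugt8a, the surface proteins and the lipid enzyme, had lower means in S100a10 arrays but did not pass, and 1 Glt25d2 array stood apart in each. Mog had 299, 395 and 48.2 in Glt25d2 replicates 1 to 3 against 67.7, 117 and 105 in S100a10 replicates 1 to 3. Glt25d2 replicates 1 and 2 lay above all S100a10 arrays, and replicate 3 lay below all of them. The log2 difference was -0.92 (SE 0.82, limma adjusted p = 0.388) and became -1.86 without Glt25d2 replicate 3 (limma adjusted p = 0.0011).

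Ugt8a had 551, 695 and 64.7 in Glt25d2 replicates 1 to 3 against 70.0, 128 and 112 in S100a10 replicates 1 to 3. Its arrays had the same order as those of Mog, with Glt25d2 replicate 3 lowest of the 6. The difference was -1.54 (SE 0.94, limma adjusted p = 0.223), or -2.63 without that array (limma adjusted p = 3.0e-04). The dim set 1419064_a_at had means of 9.0 and 5.70. Mag had 132, 135 and 50.1 against 75.8, 109 and 68.0, a difference of -0.22 (SE 0.44, limma adjusted p = 0.691). Without Glt25d2 replicate 3 Mag was -0.69 (limma adjusted p = 0.0270), and its sign turned to 0.0062 and 0.019 without Glt25d2 replicate 1 or 2.

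Cldn11, the tight junction protein of myelin, had higher values in S100a10 arrays. It had 292, 442 and 24.8 in Glt25d2 replicates 1 to 3 against 902, 1219 and 923 in S100a10 replicates 1 to 3. All S100a10 arrays lay above all Glt25d2 arrays, which was also so for 55.9% of all genes. The means of 253 ± 211 and 1015 ± 177 (SD, n = 3 each) differed by 2.77 on the log2 scale (limma adjusted p = 0.0838, SE 1.09), which did not pass. It was 1.48 without Glt25d2 replicate 3 (limma adjusted p = 0.0015) and 0.91 after quantile normalization as well (limma adjusted p = 0.0154).

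Cldn11 is also made outside oligodendrocytes, among other places in the arachnoid layer of the meninges. The list of mural cell and fibroblast genes also leaned that way: 7 of 8 measured were higher and 1 was lower in S100a10 arrays, before and after quantile normalization. Of all genes 44.4% were higher and 4.5% lower, or 18.4% in each direction after quantile normalization. The summed intensity of the list was 702 to 884 in Glt25d2 and 7519 to 9745 in S100a10 arrays. The lower gene was Rgs5, a marker of pericytes named after its value was seen, at 443 against 240 (-0.88, limma adjusted p = 0.0045; -1.58 after quantile normalization). Under 50 in every Glt25d2 array were Pdgfrb, Col1a2, Myl9, Col3a1 and Lum, with means of 863, 1867, 1615, 317 and 271 in S100a10 arrays. They entered the test through the S100a10 group alone, so their calls are descriptions. With both group means at 50 or more, 2 of 3 tested genes of the list were higher and 1 lower, against 36.6% and 3.99% of all genes. The part of the listed genes in the Cldn11 result was not tested. Within each array, the log2 value of Cldn11 minus the mean of Mog, Mag and Ugt8a was 0.065, 0.41 and -1.12 in Glt25d2 replicates 1 to 3 and 3.67, 3.37 and 3.31 in S100a10 replicates 1 to 3. This contrast was chosen after the values were seen; its size has no meaning between probe sets, and its groups differed by 3.67 on the log2 scale.

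Olig2 was the single member that passed as higher. It had 28.3, 44.8 and 33.5 in Glt25d2 and 67.6, 105 and 98.7 in S100a10 replicates 1 to 3. Every Glt25d2 array was under the limit of 50, so the gene entered the test through the S100a10 group alone, and its level there was at least 1.78-fold higher. Having been tested only because it was high there, its call on the deposited scale (limma adjusted p = 0.00638) is a description and not support for a difference. On the rescaled arrays it did not pass, after quantile normalization (limma adjusted p = 0.228) or after centring (limma adjusted p = 0.0858). Olig2 is also known from some astrocytes. Of 12 measured astrocyte genes 5 were higher (41.7%, against 44.4% of all genes) and 2 lower (16.7%, against 4.5%). After quantile normalization 3 were higher and 2 lower, against 18.4% of all genes in each direction. Gfap, 1 of the 2 lower genes, was under 50 in every S100a10 array and entered the test through the Glt25d2 group alone. With both group means at 50 or more, 5 of 11 tested were higher (45.5%, against 36.6% of all genes) and 1 lower (9.09%, against 3.99%). The summed intensity of the 12 astrocyte genes was 19823 to 30173 in Glt25d2 and 35201 to 41882 in S100a10 arrays. Their part in the Olig2 result was not tested.

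**Figure D2:**
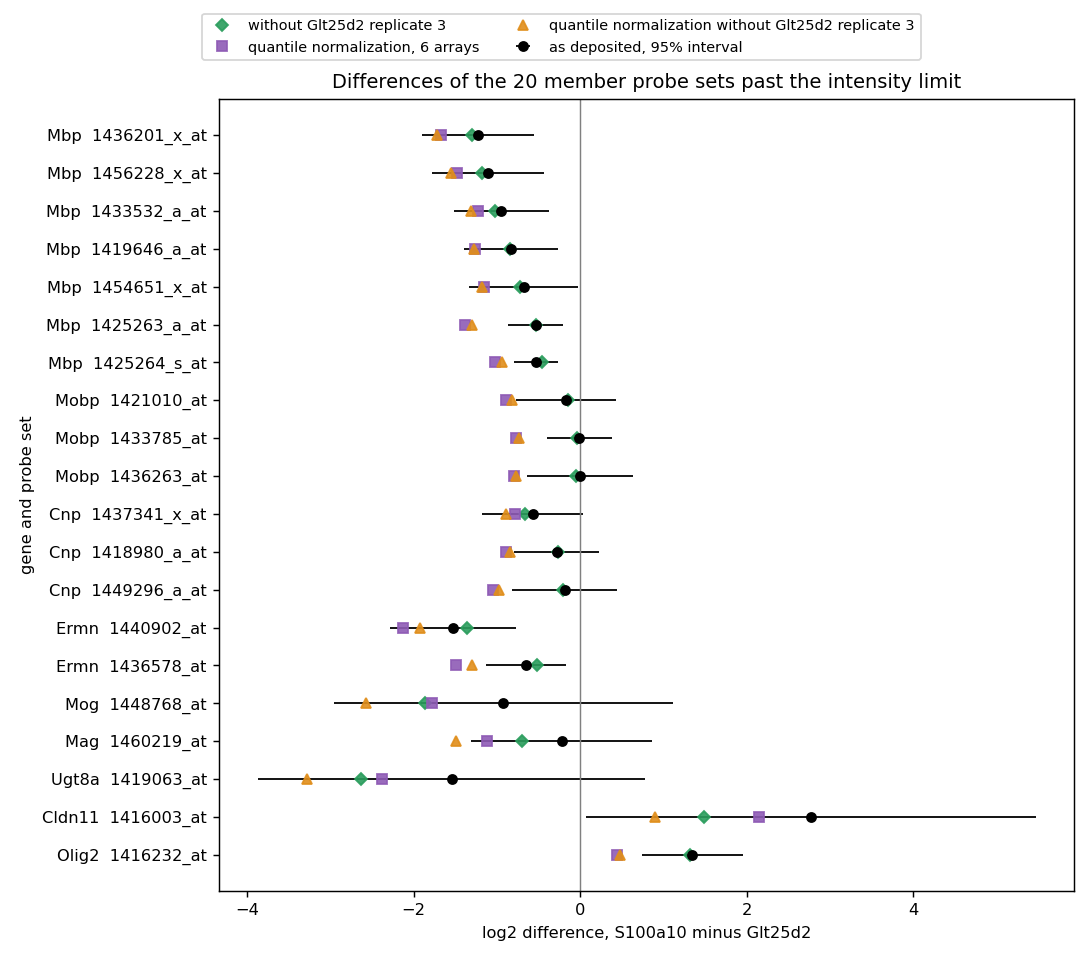
Log2 difference, S100a10 minus Glt25d2, of the 20 probe sets past the limit, with 95% intervals for the deposited scale and points for 3 other settings. The 7 Mbp and 2 Ermn sets lie left of zero in all of them, Cldn11 and Olig2 right of zero, and the wide intervals of Mog, Ugt8a and Cldn11 are those of the genes low in Glt25d2 replicate 3.

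In Glt25d2 replicate 3 the members made at the endoplasmic reticulum were low and the others were not, a grouping set with earlier results of these data known. Against the mean of Glt25d2 replicates 1 and 2, Cldn11 was 14.8-fold lower in that array, Ugt8a 9.63-fold, Mog 7.20-fold and Mag 2.66-fold. All 4 of these members were over 2-fold lower, against 14.6% of 11821 genes. The other 5 were close to the other arrays: Mbp was at 83.4% of the mean of replicates 1 and 2, Cnp at 82.7%, Mobp at 103%, Ermn at 136% and Olig2 at 91.7%.

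The mean log2 value of Mog, Mag, Ugt8a and Cldn11 minus that of Mbp, Mobp, Cnp and Ermn, taken within each array, does not change with centring. It was -2.75, -2.95 and -5.70 in Glt25d2 replicates 1 to 3 and -2.94, -2.98 and -3.01 in S100a10 replicates 1 to 3. Of the 6 arrays, 5 lay between -3.01 and -2.75 and Glt25d2 replicate 3 stood apart. The groups differed by 0.82 with that array and by -0.13 without it. After quantile normalization without that array the values were -2.61 and -2.81 in Glt25d2 and -3.03, -3.10 and -3.12 in S100a10 replicates 1 to 3, a difference of -0.38 with no overlap.

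Genes of other oligodendrocyte lists and of other cell types were low in the same array too. Over 2-fold lower there, against 14.6% of all genes, were 11 of 17 other sheath and membrane genes (64.7%), 9 of 16 genes of myelin lipid synthesis, 5 of 8 precursor genes (62.5%) and 3 of 8 genes of newly formed oligodendrocytes (37.5%). So were 2 of 19 cytoplasmic and cytoskeletal genes (10.5%), 1 of 6 secreted proteins and proteases and 0 of 6 transcription factors. Of other cell types, 5 of 12 astrocyte genes (41.7%), 2 of 5 microglial, 2 of 3 endothelial, 2 of 8 mural and fibroblast and 2 of 12 neuronal genes were over 2-fold lower there. Differences between these lists were not tested. No cause of the low values in that array was tested.

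**Figure D3:**
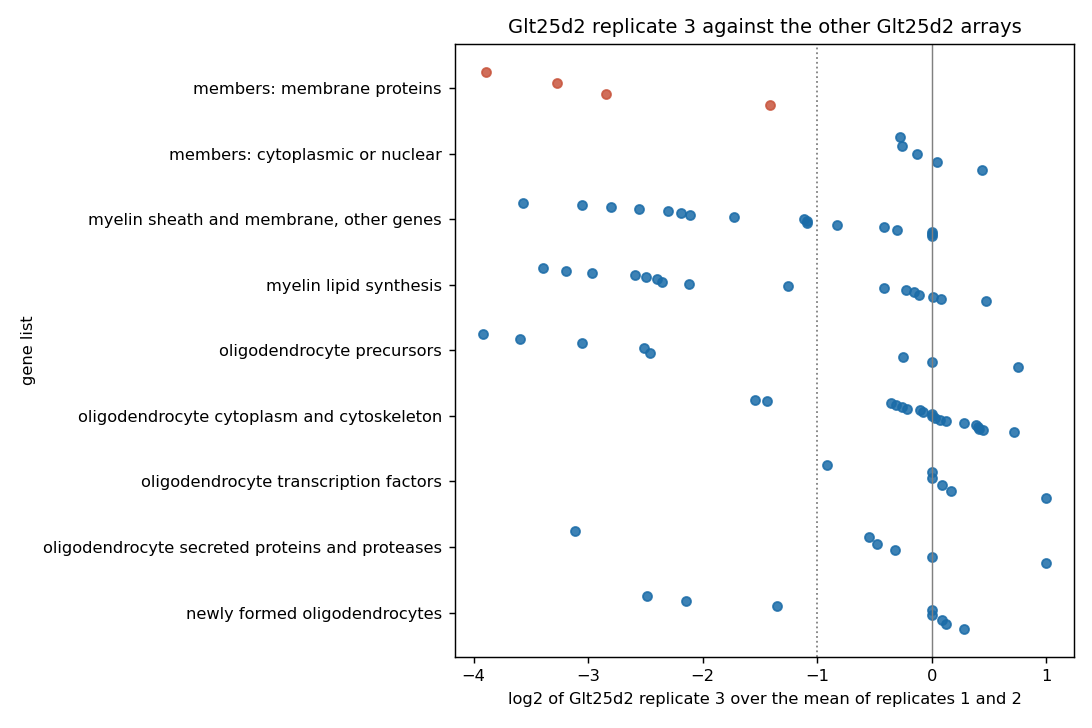
Log2 of each gene's intensity in Glt25d2 replicate 3 over the mean of replicates 1 and 2, by list; the dotted line marks a 2-fold lower value. The 4 membrane members lie at or beyond 2.66-fold lower and the other 5 near zero, and points at exactly zero are genes whose 3 Glt25d2 arrays hold the same value.

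Without Glt25d2 replicate 3 more of the members passed. In that fit 5 of 9 genes were lower in S100a10 arrays, Mbp, Ermn, Mog, Mag and Ugt8a, against 6.11% of all genes, and 2 were higher, Cldn11 and Olig2, against 55.0%. After quantile normalization of the remaining 5 arrays 7 were lower, with Cnp and Mobp added, against 22.9% of all genes, and Cldn11 alone was higher, against 23.7%. The median of the 9 differences was then -1.31, against -0.03 for all genes.

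Replicate 2 tended to hold the most myelin RNA in both lines. It was the highest array of both groups for 7 of the 9 genes, all but Ermn and Mobp, against 6.09% of all genes, and for 15 of the 20 probe sets, against 5.35%. S100a10 replicate 2 was the highest of its group in 8 of 9 genes, against 34.4% of all genes, at 1.16 to 1.60 times the mean of replicates 1 and 3. Glt25d2 replicate 2 was 1.02 to 1.68 times replicate 1. S100a10 replicate 1 was the lowest of its group in 8 of 9 genes, an order that was not counted over all genes. Replicate 2 was also highest in both groups for 7 of 12 astrocyte genes, 4 of 8 precursor genes and 1 of 12 neuronal genes. Replicate numbers were not shown to pair the samples, and no cause of this order was tested.

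**Figure D4:**
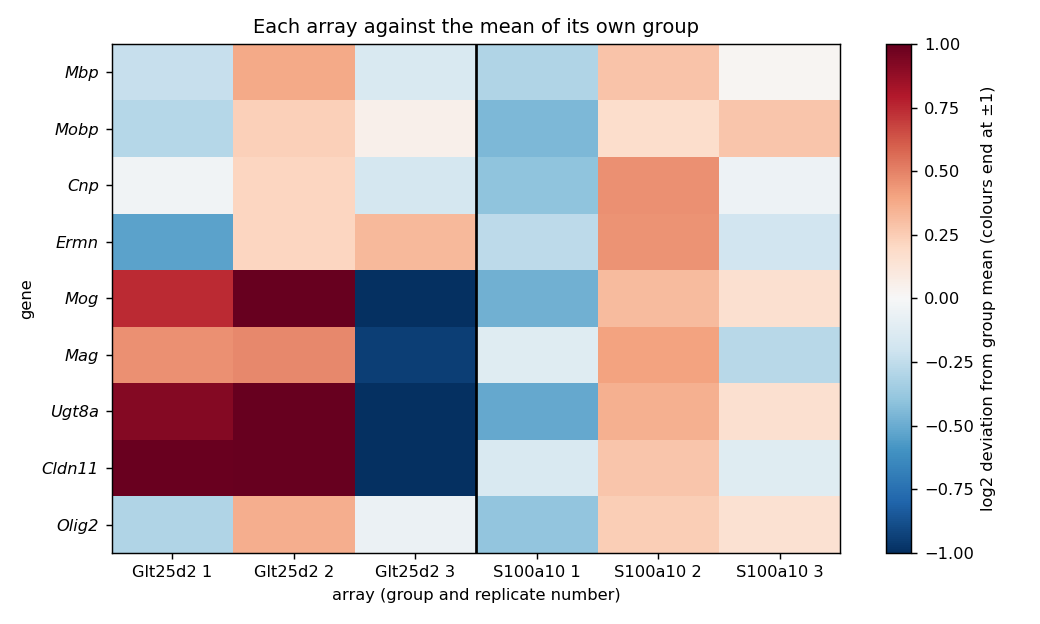
Log2 deviation of each array from the mean of its own group for the 9 genes, with colours ending at 1 in each direction. Replicate 2 is above its group's mean in every gene in both lines, and Glt25d2 replicate 3 is below it for Mog, Mag, Ugt8a and Cldn11.

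Over 6 lists of other oligodendrocyte genes, without precursors, 72 genes were measured. On the deposited scale 7 were lower in S100a10 arrays (9.72%, against 4.5% of all genes) and 25 higher (34.7%, against 44.4%). The median was 0.60 against 0.56 for all genes, and 46 differences were positive and 26 negative. Some of these genes entered the test through 1 group alone. With both group means at 50 or more, 3 of 62 tested were lower (4.84%, against 3.99% of all genes) and 19 higher (30.6%, against 36.6%). After quantile normalization 22 were lower (30.6%, against 18.4%) and 11 higher (15.3%, against 18.4%). After quantile normalization without Glt25d2 replicate 3, 32 were lower (44.4%, against 22.9%) and 13 higher (18.1%, against 23.7%), with a median of -0.41 against -0.03. The larger count was thus the higher one on the deposited scale and the lower one on both rescaled sets. Mal, Opalin, Sox10 and Olig1, named after their values were seen, differed by -0.40, -0.39, -0.12 and -0.27 and did not pass on the deposited scale. They do not stand for the 72 genes, most of which had positive differences on that scale. After quantile normalization Opalin, Sox10 and Olig1 passed as lower, at -1.28, -1.0 and -0.81 (limma adjusted p = 0.0184, 0.00836 and 0.0254), and Mal, at -1.05, did not. Without Glt25d2 replicate 3 Mal passed at -1.24 and Opalin at -0.76.

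The counts by list are on the deposited scale, where 44.4% of all genes were higher and 4.5% lower. Of 17 other genes of the sheath and its membrane, 2 were higher (11.8%) and 1 lower. Lpar1, a receptor for lysophosphatidic acid, was higher by 2.75 (SE 0.22), and by 1.92 after quantile normalization. Cd82, a tetraspanin, was higher by 0.64 (SE 0.11) on the deposited scale and turned to -0.28 after quantile normalization. Hapln2, a link protein of the matrix at nodes of Ranvier, was at least 1.05-fold lower, with all S100a10 arrays under 50. It entered the test through the Glt25d2 group alone. With both group means at 50 or more 0 of 16 tested genes of this list were lower. Cd82 and Hapln2 were listed at 1 value in all 3 Glt25d2 arrays, as were 14 of 123 other list genes in all, so their spread there is understated.

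Of 16 genes of myelin lipid synthesis, 5 were higher, which is 31.2% against 44.4% of all genes, and 1 lower. Elovl1, an elongase of very long chain fatty acids, was higher by 3.29 (SE 0.71), Cers2, a ceramide synthase, by 2.14 (SE 0.63), Gltp, a glycolipid transfer protein, by 1.44 (SE 0.18) and Aspa, which frees acetate from N-acetylaspartate, by 1.10 (SE 0.25). Elovl1 did not pass without S100a10 replicate 2, Aspa not without S100a10 replicate 1 or 2, and Cers2 passed in 2 of 6 such fits, at 1.44 to 2.61 over all 6. After quantile normalization Elovl1 and Gltp passed, at 2.60 and 0.75, and Cers2 and Aspa did not, at 1.34 and 0.44. The lower gene was Fa2h, named after its value was seen, which hydroxylates the fatty acids of galactosylceramide. It differed by -0.86 (SE 0.22), was lost without Glt25d2 replicate 2 or S100a10 replicate 1 or 3 (-1.05 to -0.72 over the 6 fits), and was -1.72 after quantile normalization.

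Of 6 transcription factors 2 were lower (33.3%, against 4.5% of all genes) and 2 higher (33.3%, against 44.4%). With both group means at 50 or more, 1 of 3 tested was higher and 0 lower, against 36.6% and 3.99% of all genes. Sox17 was lower by 3.96 (SE 0.27), and it is known from blood vessel endothelium as well as from the lineage. St18 was at least 2.08-fold lower. Sox17 and St18 had S100a10 means under 50, of 48.3 and 26.6. They entered the test through the Glt25d2 group alone, so their calls are descriptions. Tcf7l2, which acts in newly differentiating cells, was at least 2.37-fold higher on the deposited scale, and higher by 0.60 on the log2 scale after quantile normalization. It entered the test through the S100a10 group alone. Zfp536 was higher by 1.37 (SE 0.12), or by 0.47 after quantile normalization, where it did not pass. Tcf7l2 and Zfp536 were each listed at 1 value in all 3 Glt25d2 arrays, so their spread there is understated. Of 3 measured endothelial genes 1, Esam, was lower, at -0.97 (33.3%, against 4.5% of all genes). The summed intensity of the 3 was 228 to 1004 in Glt25d2 and 186 to 218 in S100a10 arrays. Their part in the Sox17 result was not tested.

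Among 19 cytoplasmic and cytoskeletal genes 9 were higher, a share of 47.4% near the 44.4% of all genes, and 3 lower, 15.8% against 4.5%. After quantile normalization 3 were higher and 7 lower, against 18.4% of all genes in each direction. Pdlim2 was higher by 2.78 (SE 0.32), Gsn, the actin-severing gelsolin, by 2.37 (SE 0.50), Cryab, a small heat shock protein, by 1.99 (SE 0.12) and Pacs2 by 1.54 (SE 0.33). Pacs2 did not pass without S100a10 replicate 1 or after quantile normalization. The 3 lower genes, named after their values were seen, were Anln at -1.04, which binds septins, Bcas1 at -1.01, a marker of cells that begin to myelinate, and Septin4 at -0.61, a filament of the sheath's cytoplasm. Septin4 passed with any 1 array left out, Anln and Bcas1 in 3 of 6 such fits each, at -1.24 to -0.89 and -1.29 to -0.79. All 3 were lower after quantile normalization, at -1.87, -1.75 and -0.92.

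Of 6 secreted proteins and proteases 3 were higher, near the share of all genes: Apod, a lipocalin, by 5.01 (SE 0.88), Serpind1 at least 8.68-fold and Ndrg1 by 0.87 (SE 0.19). Serpind1 was under 50 in every Glt25d2 array and entered the test through the S100a10 group alone. With both group means at 50 or more, 2 of 5 tested genes of this list were higher, against 36.6% of all genes. Ndrg1 did not pass after quantile normalization, at 0.56 (limma adjusted p = 0.0723). Apod, 305 ± 227 against 6826 ± 1053 (SD, n = 3 each), was 3.98 without Glt25d2 replicate 3. It is also made by fibroblasts of the meninges, whose listed genes, with those of mural cells, are given above; their part was not tested.

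Of 8 genes of newly formed oligodendrocytes 4 were higher, near the share of all genes. After quantile normalization 2 were higher and 1 lower, against 18.4% of all genes in each direction. Bmp4, a growth factor, was at least 25.1-fold higher, Nkx2-9 at least 1.39-fold and Itpr2, a calcium channel, at least 1.46-fold on the deposited scale. Itpr2 was at -0.35 after quantile normalization. Bmp4, Nkx2-9 and Itpr2 were under 50 in every Glt25d2 array and entered the test through the S100a10 group alone, so their calls are descriptions. With both group means at 50 or more, 1 of 4 tested genes of this list was higher, against 36.6% of all genes. Rras2 was higher by 0.83 (SE 0.14) and did not pass after quantile normalization, at 0.23 (limma adjusted p = 0.299). Of 8 precursor genes Pdgfra alone passed, at 2.50 (SE 0.72). Leaving out Glt25d2 replicate 3 gave 1.72 and leaving out replicate 2 gave 3.19. It did not pass in the other 4 fits with 1 array left out, nor after quantile normalization, at 1.74 (limma adjusted p = 0.0962).

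**Figure D5:**
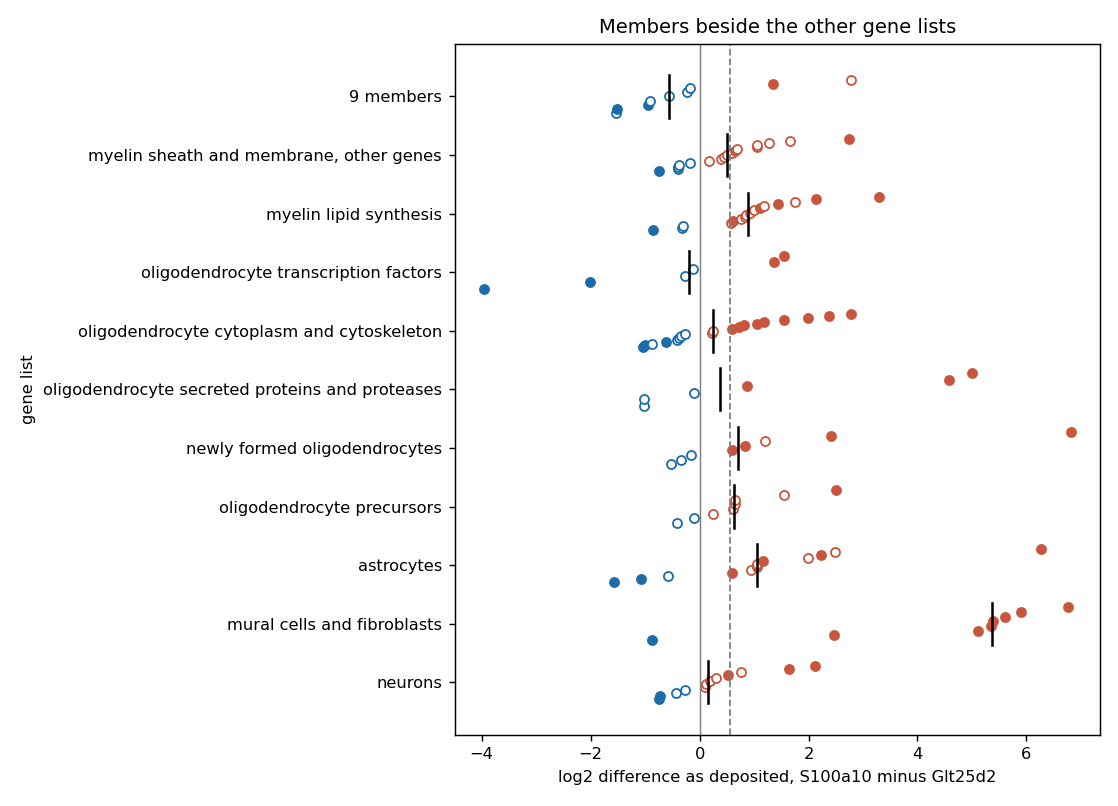
Log2 difference, S100a10 minus Glt25d2 as deposited, of each gene in the 9 members and 10 other lists. Filled points passed at a limma adjusted p under 0.05, black bars are list medians, and the dashed line at 0.56 is the median of all genes. The members' median lies at -0.57 and that of mural cells and fibroblasts at 5.37.

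Of 12 measured neuronal markers 3 were higher (25%, against 44.4% of all genes) and 2 lower (16.7%, against 4.5%). On the deposited scale, which differs between the groups, their summed intensity was 126718 to 131186 in Glt25d2 and 142722 to 146236 in S100a10 arrays. The 9 members summed to 18962, 25158 and 17869 in Glt25d2 and 10242, 17120 and 12797 in S100a10 replicates 1 to 3, and S100a10 replicate 2 was the nearest to the Glt25d2 arrays. Of 5 microglial genes 1 was higher (20%, against 44.4% of all genes). With both group means at 50 or more 0 of 3 were higher, against 36.6%.

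The 5 genes most like the 8 members other than Olig2 were found by the root mean square distance, in log2 units, between profiles over the 6 arrays, each centred on its own mean, among 11812 genes. They were Opalin (0.13), an oligodendrocyte membrane protein, Tctn1 (0.15), a protein of the ciliary transition zone, C1ql3 (0.17), a secreted protein of synapses, Glra2 (0.17), a glycine receptor subunit, and Drd1 (0.18), a dopamine receptor. The members' mean profile was itself low in Glt25d2 replicate 3, at -0.75, so the choice by likeness favours genes low in that array. Opalin had 149, 187 and 77.5 in Glt25d2 and 85.3, 127 and 88.3 in S100a10 replicates 1 to 3.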

How the data were processed

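RNA from 6 TRAP samples was measured on 1 Affymetrix mouse array each. The authors deposited linear intensity values after GCRMA, per the submitters' processing notes, with no version named. The table has 45101 probe sets. Its 64 controls were removed; 34945 of the rest carry 1 gene symbol, 932 more than 1 and 9160 none.

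Values were taken to log2 without a pseudocount. The limit of 50 applied to the larger of the 2 group means and left 21291 probe sets for 11821 genes. Differences, S100a10 minus Glt25d2, come from lmFit and eBayes of limma 3.58.1 (R 4.3.3), 2-sided, with Benjamini-Hochberg adjustment over those probe sets and a threshold of 0.05. A gene is represented by its brightest kept probe set. Where every array of a group was under 50, the fold is a bound against 50 on the deposited scale. Such a gene entered the test through the other group alone, so its call is a description and not support for a difference. The 6 arrays limit the precision. Of 160 genes in 13 other lists, 150 had a probe set naming 1 gene and 123 were kept: other sheath and membrane genes, lipid synthesis, transcription factors, cytoplasm and cytoskeleton, secreted proteins, newly formed oligodendrocytes, precursors, astrocytes, microglia, endothelium, mural cells and fibroblasts, neurons and Schwann cells. The members and lists were chosen with earlier results of these data known. Genes named by rule are all members, up to 4 of each list with the largest differences past the threshold, 5 by likeness and the drivers. Mal, Sox10, Olig1, Fa2h, Anln, Bcas1, Septin4, Rgs5, Col3a1, Lum, Egr2 and Fbll1 were named outside this rule, with their values known.

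Replicate numbers, to which the S100a10 titles add a letter b, were not used as pairs: same-numbered deviations correlated at -0.45, 0.22 and -0.24. Alternatives were other filters, a pseudocount of 16, a floor of 50, quantile normalization, median centring, the replicate block, a trended prior, array weights, an ordinary test, and left-out arrays. Simulated data drew normal noise around the mean of each of 21291 probe sets with its spread within groups. There limma called 3, 24, 38 and 42 of 50 probe sets changed 1.5-, 2-, 4- and 8-fold, with no wrong signs, and 10 unchanged ones. The simulation had no scale shift between groups and no array that stood apart, so these rates do not describe the deposited arrays. Promoter windows come from a RefSeq table of GRCm38.p6. Tables and plots were made in Python 3.11.15 (pandas 2.3.3, numpy 2.4.6, matplotlib 3.10.9).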

Additional observations from a re-analysis of the deposited data

How the results depend on the processing

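Every difference rests on 3 arrays a group and on a scale that differs between the groups, so directions toward S100a10 are the less certain. Over all probe sets, 9405 were higher and 934 lower in S100a10 arrays; the counts were 19640 and 5131 without a filter, 3574 and 4128 after quantile normalization, 3456 and 5131 after centring, 4770 and 5108 or 4724 and 6626 with Glt25d2 array 3 left out as well, and 5285 and 542 with 1 probe set for each gene. Array weights gave 1537 lower, and leaving out 1 array 617 to 1278 lower.

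Of the 20 member probe sets 1 was higher and 8 lower. By limma, 0 were higher with both group means at 50 or more (1 at an unadjusted p under 0.05; Olig2 was then not tested), 0 after quantile normalization (0 unadjusted) and 0 after centring (1 unadjusted), and 2 were higher without Glt25d2 replicate 3; the ordinary 2-sample test gave 1. Of all probe sets 35.3%, 16.8%, 16.2%, 55.1% and 38.8% were higher in these settings, in that order. Lower were 13 members after quantile normalization, against 19.4% of all probe sets, and 14 after centring, against 24.1%. Array weights gave 13, against 7.22%, and the ordinary test 5, against 3.8%. With either rescaling and Glt25d2 array 3 left out 17 were lower, against 24.0% or 31.1%. With 1 array left out 2 to 11 were lower, against 2.9% to 6.01%. Of the 9 genes, 1 was higher and 2 lower. With both group means at 50 or more, after quantile normalization and after centring 0 were higher, against 36.6%, 18.4% and 16.9% of all genes. Without Glt25d2 replicate 3, 2 were higher, against 55.0%. Lower were 4 after centring, against 25.1%, and 6 with array weights, against 7.61%. With either rescaling and Glt25d2 array 3 left out 7 genes were lower, against 22.9% or 32.6%. With 1 array left out 1 to 5 genes were lower, against 3.04% to 6.11%.

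For the 72 other oligodendrocyte genes, 25 higher and 7 lower became 11 and 22 after quantile normalization and 12 and 23 after centring. They became 13 and 32 or 15 and 36 with Glt25d2 array 3 left out as well. With both means at 50 or more 3 of 62 tested were lower, against 3.99% of all genes. Array weights gave 20 lower, and leaving out 1 array 4 to 13 lower. Shares of all genes in the other settings are given above. Signs turned for Mobp 1436263_at with a pseudocount of 16 (0.0028) and, with 1 array left out, for the Mobp sets (-0.32 to 0.051, -0.13 to 0.13 and -0.15 to 0.27) and Mag (-0.69 to 0.019). The cause was not tested. With the replicate number as a block, 558 probe sets were lower over all, and among the 20 members 2 calls were lost and 1 gained.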

Other observations

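Of 5 genes listed for Schwann cells and peripheral myelin 3 were measured. Pmp22 was higher in S100a10 arrays, at 4.50 (SE 0.36), with means of 72.0 ± 30.3 in Glt25d2 and 1524 ± 129 in S100a10 arrays (SD, n = 3 each). Egr2 at -0.86 did not pass. Fbll1 at 0.072 did not pass either, and it is not known as a marker of these cells. Within each array, Ermn minus Mobp on the log2 scale was 1.41, 1.64 and 1.94 in Glt25d2 replicates 1 to 3 and 0.50, 0.59 and -0.15 in S100a10 replicates 1 to 3, a contrast chosen after the values were seen that does not change with centring.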
